A study of Mus musculus with 12 samples.

Results

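The Krüppel-like factors are zinc finger transcription factors. The 10 members described here, Klf2, Klf3, Klf4, Klf6, Klf9, Klf10, Klf11, Klf12, Klf13 and Klf15, were taken by their gene symbols from the 23420 symbols of the liver count tables. They were measured in 12 mice on a C57BL/6 background, wild type or lacking Siah2, a ubiquitin ligase, with 3 mice in each of 4 groups: wild type females, Siah2 KO females, wild type males and Siah2 KO males. All were about 20 weeks of age, ate normal chow without restriction and were sampled at ZT10, counted in hours from lights on. The wild type and KO mice came from related lines that were set up by intercrossing heterozygotes, so genotype and line cannot be told apart. The KO mice were homozygous Siah2-/- animals, so the deletion was not specific to liver. Mice are named here by their numbers.

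Krüppel-like factors share 3 zinc fingers at the carboxyl end, which bind GC boxes and CACCC boxes, and differ in the rest of the protein, through which they recruit activators or repressors. Klf3 and Klf12 recruit the repressor CtBP, Klf9, Klf10, Klf11 and Klf13 recruit Sin3A and its histone deacetylases, and Klf2, Klf4 and Klf6 mostly activate. In liver, Klf15 is known for driving amino acid breakdown and gluconeogenesis, and Klf9 and Klf15 are known to be induced by glucocorticoids. Transcripts of several members, among them Klf9, Klf10 and Klf15, are known to cycle with the day.

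The promoters are shown because the same letters recur in them: a GC box or CACCC box is the kind of site that the family's own proteins bind, and the E-box is bound by the clock factors CLOCK and BMAL1. RefSeq windows of the 250 bases before the transcript start (GRCm38.p6) were found for 9 of the 10 members, all but Klf10. In Klf6 and Klf15 the capitals mark the E-box CACGTG. Klf2 and Klf9 have no E-box in the window, and there the capitals mark GC boxes (GGGCGG, or CCGCCC on the other strand) and CACCC boxes (or GGGTG).
Klf6, chr13:5861239-5861488, plus strand: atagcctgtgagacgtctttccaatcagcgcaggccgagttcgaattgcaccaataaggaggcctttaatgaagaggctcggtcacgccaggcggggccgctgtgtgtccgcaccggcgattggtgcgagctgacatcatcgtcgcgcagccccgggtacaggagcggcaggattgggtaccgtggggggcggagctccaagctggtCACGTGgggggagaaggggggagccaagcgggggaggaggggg
Klf15, chr6:90462326-90462575, plus strand: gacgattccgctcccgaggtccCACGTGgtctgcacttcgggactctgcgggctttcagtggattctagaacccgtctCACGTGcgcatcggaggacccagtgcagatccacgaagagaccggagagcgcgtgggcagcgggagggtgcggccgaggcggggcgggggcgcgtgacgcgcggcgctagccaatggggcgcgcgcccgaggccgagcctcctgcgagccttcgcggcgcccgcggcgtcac
Klf2, chr8:72318812-72319061, plus strand: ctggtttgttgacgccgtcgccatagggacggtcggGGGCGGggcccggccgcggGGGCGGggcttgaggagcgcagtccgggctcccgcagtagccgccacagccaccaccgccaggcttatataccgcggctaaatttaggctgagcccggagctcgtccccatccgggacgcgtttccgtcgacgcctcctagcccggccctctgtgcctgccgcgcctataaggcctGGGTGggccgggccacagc
Klf9, chr19:23140976-23141225, plus strand: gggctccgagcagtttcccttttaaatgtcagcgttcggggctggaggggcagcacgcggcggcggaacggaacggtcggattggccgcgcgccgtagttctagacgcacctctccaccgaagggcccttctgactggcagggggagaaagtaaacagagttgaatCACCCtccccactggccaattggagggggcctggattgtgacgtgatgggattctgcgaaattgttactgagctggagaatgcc

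The E-box lay 43 bases before the start of Klf6 and 228 and 172 bases before that of Klf15, and the start used for Klf15 lies inside the annotated span of the gene, which begins at position 90461043 of chromosome 6. Klf4 and Klf11 also had 1 E-box each, at 182 and 214 bases before the start. In all, 4 of the 9 windows held CACGTG, against 6.02% of the 32851 windows of the table. Both strands were read for each motif. GGGCGG was found in 7 of 9 against 32.7%, CACCC in 6 of 9 against 52.0%, and TGACG, the CRE half-site, in 6 of 9 against 17.8%. GC boxes and CACCC boxes shared a letter in Klf3 and Klf13 only. AGGTCA and AGAACA, the half-sites of REV-ERB and of the glucocorticoid receptor, were in 0 of 9 windows, against 14.0% and 16.1%. The member windows held between 48.0% and 78.4% G and C, and 8 of the 9 lay above the median of all windows, 52.4%. The lowest was that of Klf12, chr14:100149797-100150046 on the minus strand. As for Klf15, its start lies inside the annotated span of the gene, which runs from 99866181 to 100285891.

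Between 1293688 and 4056144 reads per library were counted on genes, and Rn45s, the ribosomal RNA precursor, took 5.68% to 17.9% of them. Siah2 itself had 9.48 to 12.4 CPM (read counts relative to scaled library totals) in KO females against 12.1 to 16.8 in wild type females, and 9.31 to 17.0 in KO males against 16.7 to 27.0 in wild type males, so the groups overlapped in both sexes. The position of these 3′ reads relative to the deleted part is not stated in the labels or methods, so Siah2 does not check the labels. The library of wild type female 1091 stood apart: set against each of the other wild type females, its counts gave a chi-square per degree of freedom of 42.0 and 45.0 (about 1 where only counting error separates libraries), against 6.71 to 21.8 for the 10 other pairs within groups. The labels describe RNA pooled from 3 mice while the paper describes individual livers, so the spread between libraries may be that of mice or of pools. Hepatocyte markers were found in all libraries, with a summed level of 36070 to 57673 CPM over 8 genes.

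Klf9 was the most abundant member in each of the 12 mice. Its mean was 504 CPM, and it made up 49.1% to 72.3% of the summed level of the 10 members. QuantSeq gives 1 read per transcript near its 3′ end, so CPM was compared between genes without division by length. Klf15 followed with 97.3 CPM and Klf6 with 88.6, then Klf13 with 46.7 and Klf11 with 24.2. Klf10 had 14.1 CPM, Klf3 14.0, Klf12 10.9, Klf2 10.7 and Klf4 4.27. Only the top and the bottom of this order held in every mouse: Klf9 was above Klf15 in 12 of 12 and Klf2 above Klf4 in 12 of 12. Klf15 was above Klf6 in 8 of 12 mice, Klf10 above Klf3 in 7 and Klf12 above Klf2 in 6, so these neighbours were not ordered beyond their spread. Klf4 rested on 4 to 31 reads per mouse and Klf2 on 8 to 89, whereas Klf9 had 654 to 2595.

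**Figure D1:**
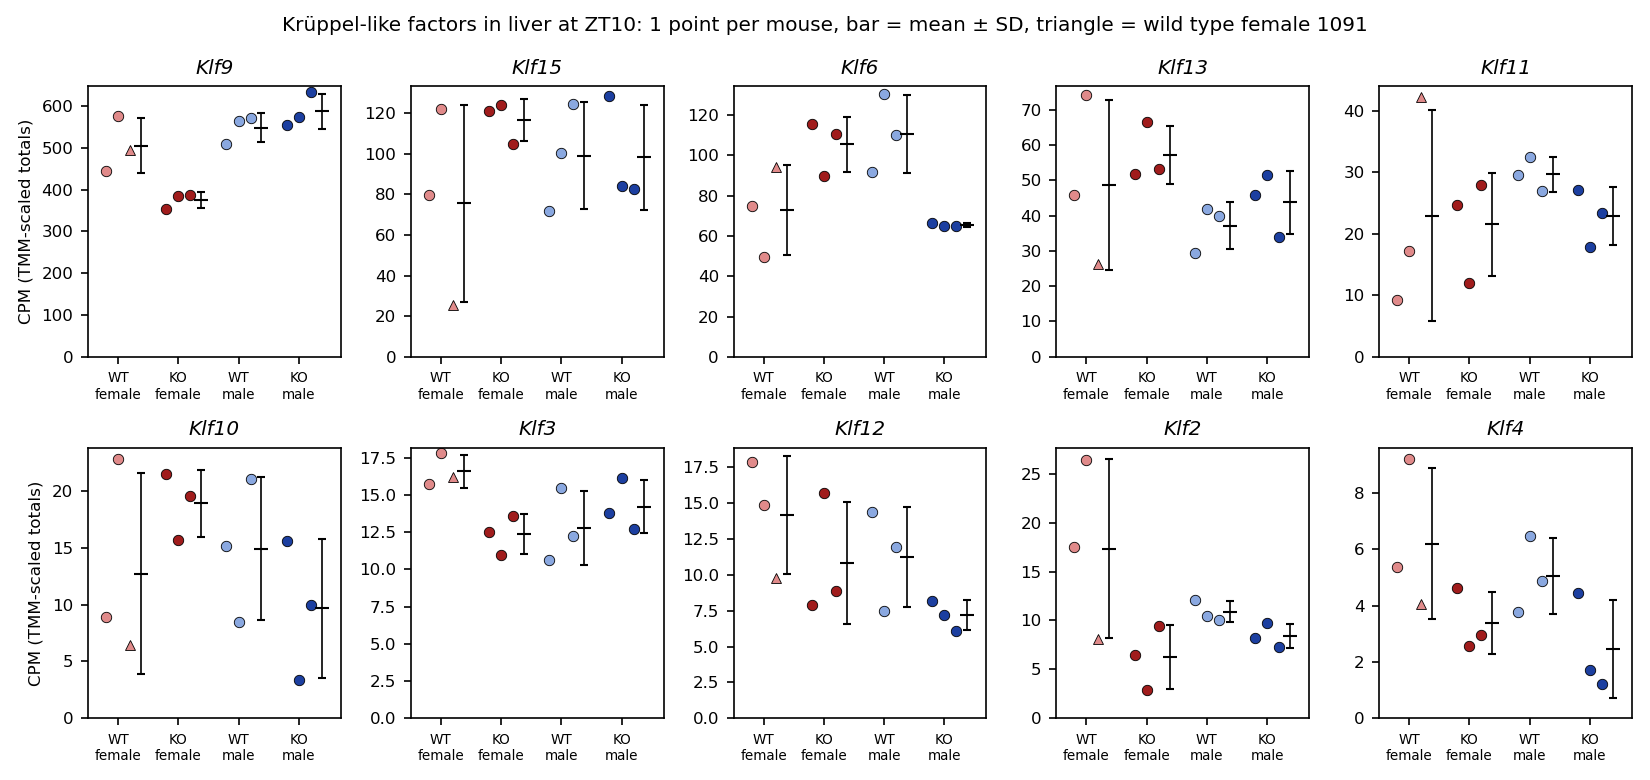
Level of each Krüppel-like factor in CPM by group, 1 point per mouse (3 mice a group), with the mean and SD beside the points and a triangle for wild type female 1091; every axis starts at 0. The 3 KO males lie between 65.0 and 66.6 CPM for Klf6, and the 3 KO females lie below the other 9 mice for Klf9.

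The members differed in how closely the mice of a group agreed. On the log2 scale the SD within groups was 0.12 for Klf9, 0.19 for Klf3 and 0.28 for Klf6, and 0.82 for Klf10, the most variable. Mouse 1091 took part in much of this spread. It lay below both other wild type females for 6 members, Klf2, Klf4, Klf10, Klf12, Klf13 and Klf15, and above both for Klf6 and Klf11. For 3 members it lay outside the range of the other 11 mice: Klf15 at 25.3 CPM, Klf13 at 26.3 and Klf11 at 42.2. Its Klf15 level was 0.251 times the mean of the other wild type females and its Klf11 level 3.18 times. Klf9 and Klf3 were little touched, at 0.970 and 0.965 times.

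**Figure D2:**
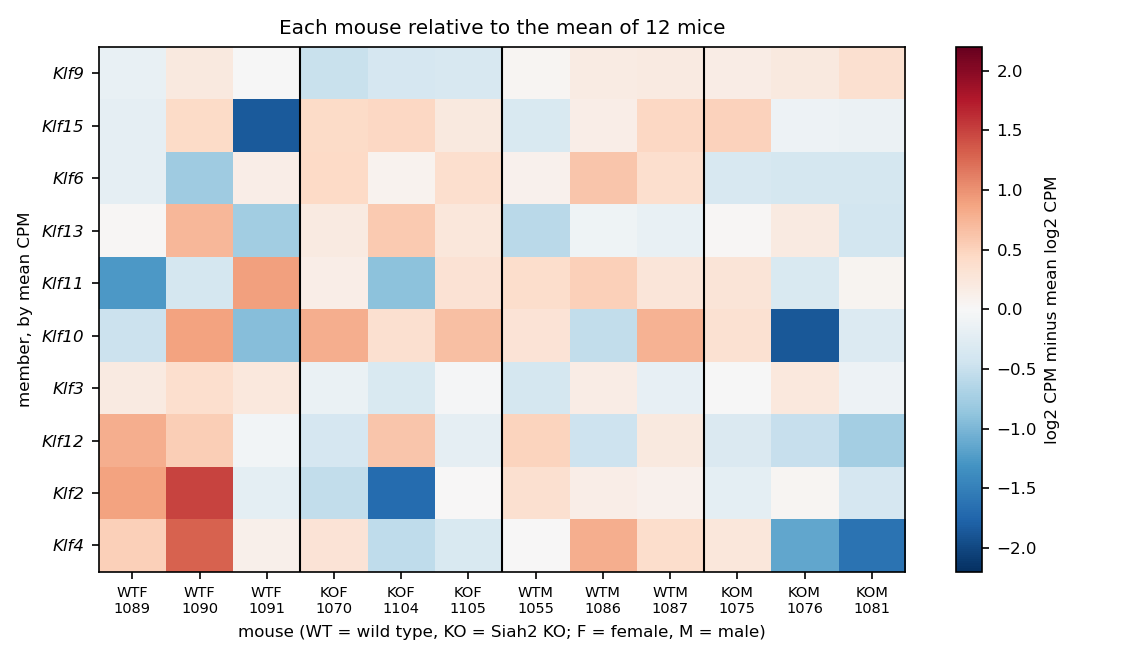
Log2 CPM of each member in each mouse minus the mean over the 12 mice (red higher, blue lower), with members ordered by level and groups divided by vertical lines. The column of wild type female 1091 holds a low Klf15 and a high Klf11, at 25.3 and 42.2 CPM.

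The first comparison asked whether the family differed between KO and wild type females. None of the 10 members passed. Among the 9465 genes that edgeR's quasi-likelihood test covered, with p adjusted by Benjamini-Hochberg, 0 members had an adjusted p under 0.05 (0% of all genes tested), and DESeq2 called 0 members (3.7% of genes). DESeq2 gave no adjusted p for Klf4 here, so it could not call that member. At an unadjusted p under 0.05 there was 1 member, Klf2, against 15.6% of genes. The log2 fold changes were above 0 for 4 members and below 0 for 6, from -1.51 to 0.62, with a median of -0.22 beside -0.03 over all genes.

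Klf2, the flow-responsive activator known best from endothelium, had 17.5, 26.4 and 8.10 CPM in wild type females 1089, 1090 and 1091. In KO females it had 6.52, 2.92 and 9.48 CPM. The groups overlapped through 1091 alone, which lay between KO females 1070 and 1105. The log2 fold change was -1.51 (SE 0.52, adjusted p = 0.203 by edgeR), and DESeq2 gave an adjusted p of 0.132. Without 1091 it was -1.87, and both edgeR (adjusted p = 0.0156) and DESeq2 (adjusted p = 0.00600) called it. In those fits 9.64% of all genes were called by edgeR and 12.2% by DESeq2, so 1 member of 10 by edgeR and 2 by DESeq2 are near the share of all genes. Over the 6 fits that left out 1 mouse, it ran from -1.87 to -1.05, with adjusted p from 0.0156 to 0.537. Markers of sinusoidal endothelium had a summed level of 376 to 394 CPM in KO females and 426 to 479 in wild type females. Of the 12, 8 were below 0 in log2 fold change, with a median of -0.41, and 0 were called by edgeR or DESeq2. At an unadjusted p under 0.05 there were 2, beside 15.6% of all genes. Without 1091, Pecam1 (-1.44) and Bmp2 (-0.92) of these markers were called lower in KO females by edgeR, and both also by DESeq2. Their part in the Klf2 values was not tested, and in bulk liver fewer cells of a type and less RNA per cell cannot be told apart.

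Leaving out 1091 put Klf6 higher in KO females by 0.76 on the log2 scale, which DESeq2 called (adjusted p = 0.0297, beside the 12.2% of all genes above) and edgeR did not (adjusted p = 0.0550). Klf9 and Klf3 were the 2 members whose KO and wild type females did not overlap, both lower in KO, beside 23.4% of all genes with no overlap in either direction. Klf9 ranged from 353 to 387 CPM in KO females and from 445 to 575 in wild type females. Klf3 ranged from 10.9 to 13.6 against 15.7 to 17.8 CPM. Neither reached an unadjusted p of 0.05 with all 6 mice.

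In males the question was the same, and again 0 of 10 members were called by edgeR (0% of 8823 genes) or by DESeq2 (0.037% of genes). At an unadjusted p under 0.05 there was 1, Klf6, against 4.05% of genes. The log2 fold change was above 0 for 3 members and below 0 for 7, from -1.10 to 0.20, with a median of -0.37 beside -0.01 over all genes.

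Klf6, an activator that responds early to growth and injury signals and is known in liver from stellate cell activation, had 91.6, 130 and 110 CPM in wild type males. The KO males had 66.6, 65.0 and 65.0 CPM. All 3 KO males lay below all 3 wild type males. The log2 fold change was -0.77 (SE 0.17, adjusted p = 0.555 by edgeR), and DESeq2 gave an adjusted p of 0.338. With each male left out in turn it ran from -0.87 to -0.62 and was not called. Klf2 was the other member without overlap, at 7.33 to 9.78 CPM in KO males and 10.1 to 12.1 in wild type males, beside 8.93% of genes. Of the marker lists in males, stellate cell markers had 4 of 8 tested below 0 (median -0.02, range -0.54 to 0.23), Kupffer cell markers 6 of 7 (median -0.54, lowest -2.49), bile duct markers 2 of 2 (median -0.67), endothelial markers 8 of 12 (median -0.12) and hepatocyte markers 5 of 8 (median -0.03). By edgeR and DESeq2 0 of them were called, with 0, 1, 1, 1 and 0 at an unadjusted p under 0.05 by edgeR, beside 4.05% of all genes. Their part in the Klf6 values was not tested.

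**Figure D3:**
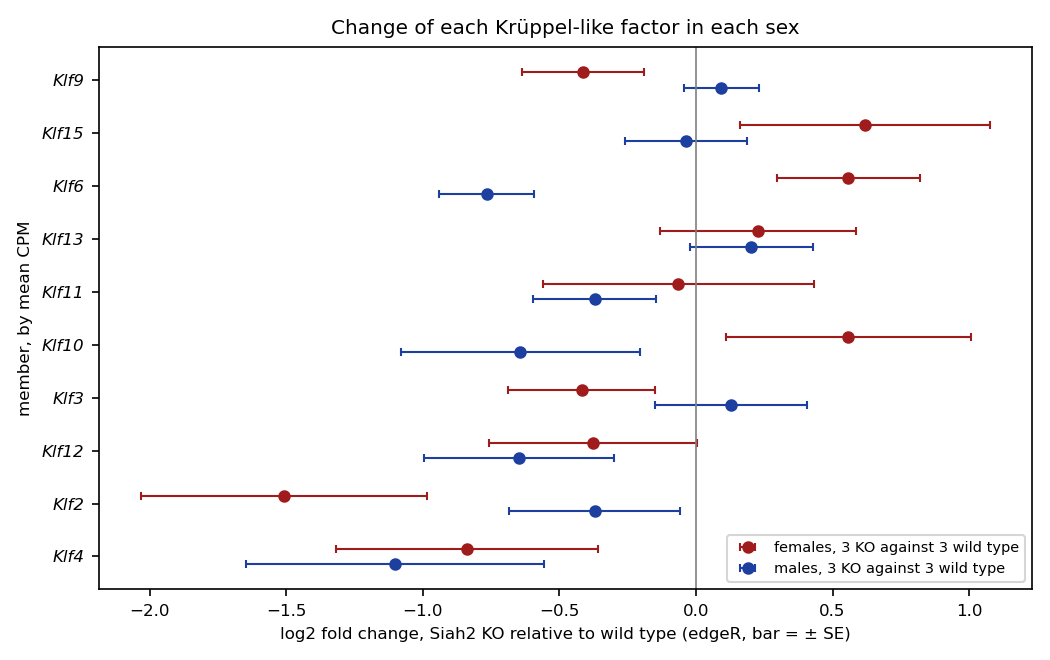
Log2 fold change of each member, Siah2 KO relative to wild type, in females (red) and males (blue), with 3 mice a group and bars of ± SE from edgeR. Klf6 lies at 0.56 in females and -0.77 in males, and Klf2 at -1.51 and -0.37.

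With the sexes combined, as the study first compared them, 0 members were called by edgeR (0.0111% of genes) or DESeq2 (0.0056%), and 2 had an unadjusted p under 0.05 (5.65% of genes). They were Klf2, with a log2 fold change of -0.97 (SE 0.33, adjusted p = 0.866 by edgeR), and Klf4, with -0.96 (SE 0.36, adjusted p = 0.866 by edgeR). Klf4, a barrier and differentiation factor close to Klf2 in sequence, had 5.37, 9.20 and 4.05 CPM in wild type females and 4.62, 2.55 and 2.96 in KO females. In males it had 3.78, 6.49 and 4.89 CPM in wild type and 4.47, 1.70 and 1.22 in KO. The KO mean was below the wild type mean in both sexes for Klf2 and for Klf4, with overlap in females for both and in males for Klf4. Of the 10 members, 3 were above 0 and 7 below, with a median of -0.14 beside -0.02.

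Whether the change differed between the sexes was tested directly, as a difference of differences (females minus males). Klf6 had a difference of 1.32 on the log2 scale (SE 0.31, adjusted p = 0.0829 by edgeR). By edgeR 0 members were called (0.255% of genes) and 1 had an unadjusted p under 0.05 (14.1%), while DESeq2 called 1, Klf6, at an adjusted p of 0.00868 (3.32% of genes). Klf4 again had no adjusted p by DESeq2. In females Klf6 had 74.8, 49.6 and 94.1 CPM in wild type and 116, 89.8 and 111 in KO. The female groups overlapped because 1091, at 94.1, lay above KO female 1104. The group means were 72.8 ± 22.3 CPM (SD, n = 3) in wild type females and 105 ± 13.8 in KO females, against 111 ± 19.4 in wild type males and 65.5 ± 0.945 in KO males. KO females were thus near wild type males, and KO males near wild type females. Without 1091 the difference was 1.53 and edgeR called it (adjusted p = 0.00610), in a fit that called 5.15% of all genes instead of 0.255%. Over the 12 fits that left out 1 mouse it ran from 1.07 to 1.53 with adjusted p from 0.00610 to 0.235. The other members ran from -1.14 for Klf2 to 1.20 for Klf10, and the median of all 10 was 0.26 beside -0.02.

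The sexes were then compared within each genotype. The sexes were deposited in separate tables, and in the library descriptions of the labels the S numbers of all females come before those of all males, so these differences cannot be told apart from a difference between the tables. In wild type mice 0 members were called by edgeR (1.39% of genes) or DESeq2 (3.74%), and 0 had an unadjusted p under 0.05 by edgeR (15.2% of genes). The log2 differences, female minus male, ran from -0.61 to 0.69, with a median of 0.08 beside 0.05. Only Klf3 had no overlap, higher in females, beside 22.7% of genes. Without 1091, Klf11 was lower in wild type females by edgeR (-1.13, adjusted p = 0.0455), at 9.30 and 17.2 CPM against 26.9 to 32.5 in males, in a fit that called 7.73% of all genes, so 1 member of 10 is near that share.

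Between KO females and KO males 9 members passed the filter on low counts, all but Klf4. By edgeR 2 of the 9 were called, Klf6 and Klf9, and the same 2 by DESeq2, beside 11.5% and 9.91% of all genes. At an unadjusted p under 0.05 there were 3, with Klf10 added, beside 26.1%. Klf9, a repressor of the Sin3A group that responds to glucocorticoids and thyroid hormone, had 353, 385 and 387 CPM in KO females and 554, 573 and 634 in KO males. The log2 difference was -0.65 (SE 0.14, adjusted p = 0.00951 by edgeR and 9.68e-05 by DESeq2). Wild type females had 445, 575 and 495 CPM and wild type males 509, 565 and 571, which overlapped. The difference of differences for Klf9 was -0.51 (SE 0.25) and was called by neither edgeR (adjusted p = 0.386) nor DESeq2 (adjusted p = 0.198). Klf6 was higher in KO females by 0.68 (SE 0.16, adjusted p = 0.0148 by edgeR and 0.0105 by DESeq2), from 89.8 to 116 against 65.0 to 66.6 CPM. Klf10, a repressor induced by TGF-beta and by glucose, had 21.5, 15.7 and 19.5 CPM in KO females and 15.6, 3.40 and 10.0 in KO males. Its difference was 0.94 (SE 0.37, adjusted p = 0.120 by edgeR).

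The groups of KO females and KO males did not overlap for 4 members, Klf6, Klf10 and Klf13 higher in females and Klf9 lower, beside 30.4% of genes. Without KO male 1081, 0 members were called by edgeR (5.14% of genes), with adjusted p of 0.0669 for Klf6 and 0.0599 for Klf9. Without KO female 1070 only Klf9 was called (5.9% of genes), and without KO male 1075 Klf10 was called as well (1.39, adjusted p = 0.0460, 7.88% of genes). In a fit of all 4 groups, which called 3.59% of genes, the log2 differences were 0.67 and -0.66, and neither Klf6 nor Klf9 was called (adjusted p = 0.112 and 0.0538). Markers of Kupffer cells, the liver macrophages, also differed between KO females and KO males. Of the 11 measured 9 were tested, and edgeR called 6 higher in KO females by 1.58 (Clec4f) to 2.99 (Marco), beside 11.5% of all genes. Their summed level was 380 to 873 CPM in KO females against 114 to 261 in KO males. Their part in Klf6 and Klf10 was not tested.

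The members not yet given by mouse were Klf11, Klf12, Klf13 and Klf15. Klf15 had 79.4, 122 and 25.3 CPM in wild type females and 121, 124 and 105 in KO females. In males it had 71.9, 100 and 125 in wild type and 128, 84.2 and 82.5 in KO. All 3 KO females were above wild type females 1089 and 1091, and 1090 lay among them. Klf13, the Sin3A-binding relative of Klf9, ranged from 26.3 to 74.2 CPM in wild type females, 51.6 to 66.4 in KO females, 29.5 to 42.0 in wild type males and 33.9 to 51.4 in KO males. Klf11, the relative of Klf10 and a regulator of insulin and glucose metabolism, ranged from 9.30 to 42.2, 12.04 to 27.8, 26.9 to 32.5 and 17.9 to 27.2 CPM in the same order. Klf12 ranged from 9.78 to 17.9, 7.88 to 15.7, 7.49 to 14.4 and 6.11 to 8.19 CPM. For these 4 members the KO and wild type ranges overlapped in both sexes, and edgeR gave no unadjusted p under 0.05 between genotypes.

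Of the other 7 Krüppel-like factors measured, Klf7 had a median of 14.8 CPM, similar to Klf10, and Klf1, Klf5, Klf8, Klf14, Klf16 and Klf17 had medians of 0 to 3.13 CPM. In each of the 6 comparisons 1 or 2 of the 7 were tested and 0 were called by edgeR or DESeq2 (0 at an unadjusted p under 0.05). Among the 9 Sp factors, which bind the same GC boxes, 4 were tested, with Sp1 the most abundant at a median of 57.3 CPM, and 0 were called by either tool (0 or 1 at an unadjusted p under 0.05). Of 11 co-regulators and ubiquitin ligases of the family, 10 were tested and 0 were called between genotypes (0 at an unadjusted p under 0.05). Between KO females and KO males 1 co-regulator was called by each tool, beside 11.5% of all genes by edgeR and 9.91% by DESeq2. This was Crebbp, the acetyltransferase CBP, lower in KO females by edgeR (-0.68, adjusted p = 0.0324), at 31.7 to 39.7 against 49.1 to 68.0 CPM. At an unadjusted p under 0.05 by edgeR there were 3 of 10, all lower in KO females, beside 26.1%.

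The enzymes and regulators linked to Klf15, for amino acid breakdown and gluconeogenesis, were next set beside it. All 11 were tested, and in females all 11 log2 fold changes were above 0, with a median of 0.68 beside -0.03 over all genes. None was called by edgeR (3 at an unadjusted p under 0.05, beside 15.6% of all genes), whereas DESeq2 called 2, beside 3.7% of all genes. Pck1, which catalyses the committed step of gluconeogenesis, had 2810, 7884 and 1990 CPM in wild type females and 12763, 8893 and 16520 in KO females. Its log2 fold change by DESeq2 was 1.60 (adjusted p = 0.0179), and by edgeR 1.59 (adjusted p = 0.190). Gpt2, the mitochondrial alanine aminotransferase, had 502, 973 and 945 CPM against 1457, 2069 and 1563, with 1.10 by DESeq2 (adjusted p = 0.0235) and 1.09 by edgeR (adjusted p = 0.138). All 3 KO females were above all 3 wild type females for both genes. In all, 4 of the 11 genes had no overlap in females, all higher in KO, beside 23.4% of all genes in either direction.

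In males 3 of the 11 were above 0 and 8 below, with a median of -0.10 beside -0.01 and 0 called by edgeR or DESeq2 (1 at an unadjusted p under 0.05, beside 4.05% of all genes). For the change in females minus that in males, 11 of 11 were above 0, with a median of 0.85 beside -0.02 and again 0 called by either tool (4 at an unadjusted p under 0.05, beside 14.1% of all genes). Mouse 1091 bore on these values too. Without it 9 of 11 were above 0 in females, the median was 0.43, and edgeR called Gpt (1.07, adjusted p = 0.0159) and Gpt2 (1.20, adjusted p = 0.0255) but not Pck1 (1.25, adjusted p = 0.0702), 2 of 11 beside 9.64% of all genes. DESeq2 without 1091 called Gpt, Gpt2 and Tat, 3 of 11 beside 12.2%. For the female minus male change without 1091, edgeR called Gpt alone (1.17, adjusted p = 0.0234), 1 of 11 beside 5.15%, and DESeq2 called Gpt and Gpt2, beside 9.58%. Between KO females and KO males edgeR called 5 of 11, beside 11.5% of all genes, all higher in females: Gpt (0.87), Ppargc1a (0.85), Arg1 (0.73), Prodh (0.70) and Aass (0.60). DESeq2 called the same genes without Prodh, and Gpt2 in addition (0.56), beside 9.91% of all genes. With all mice in the fit, Klf15 itself was not called in any of these comparisons.

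**Figure D4:**
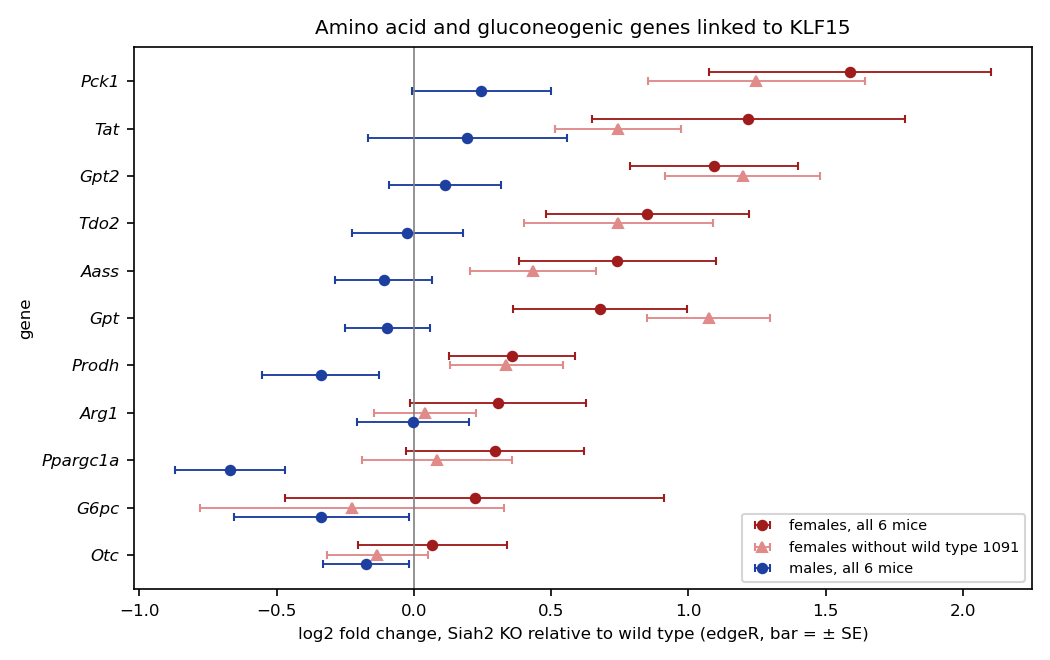
Log2 fold change, Siah2 KO relative to wild type, of 11 amino acid and gluconeogenic genes linked to Klf15, with bars of ± SE from edgeR, in females with all 6 mice, in females without wild type 1091, and in males. With all mice the female values run from 0.07 to 1.59 and the male values from -0.67 to 0.25.

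Glucose and lipid genes linked to Klf10 and Klf11 numbered 10, of which Pck1 and G6pc are shared with the Klf15 list. In females 9 of 10 were above 0, with a median of 0.20 and 0 called by edgeR. At an unadjusted p under 0.05 there were 3, beside 15.6% of all genes, and DESeq2 called Pck1, beside 3.7%. In males 3 of 10 were above 0, with a median of -0.17 and 0 called by either tool (1 at an unadjusted p under 0.05, beside 4.05%). Glucocorticoid-induced genes numbered 12, and between genotypes 0 were called in either sex by edgeR or DESeq2. At an unadjusted p under 0.05 there was 1 in each sex, of 11 tested in females and 12 in males. Of all genes, 15.6% and 4.05% had such a p. The metallothioneins Mt1 and Mt2, which bind zinc, were higher in females of both genotypes, by 3.73 and 4.18 in wild type (adjusted p = 0.0151 and 0.0196 by edgeR) and by 1.80 and 2.38 in KO. Fkbp5, a brake on the glucocorticoid receptor, was higher in KO females than in KO males (0.82, adjusted p = 0.0284 by edgeR). Most of the list went the other way there: 8 of 12 were lower in KO females and 4 higher, with a median of -0.22. These 3 genes were the ones called, beside 11.5% of all genes, and 2 others were lower at an unadjusted p under 0.05 by edgeR. In wild type 6 of 11 tested were higher in females and 5 lower, with Mt1 and Mt2 called by edgeR, beside 1.39% of all genes. Immediate early genes, like Klf2, Klf4, Klf6 and Klf10, respond within minutes to stimuli and to handling. They were tested for 8 of 13 in females and 6 of 13 in males, with 0 called by edgeR or DESeq2. At an unadjusted p under 0.05 there was 1 of 8 in females, beside 15.6% of all genes. In males there were 2 of 6, beside 4.05%. The 1 in females and the 2 in males were lower in KO.

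Between genotypes, 0 markers of hepatocytes, sinusoidal endothelium, stellate cells, Kupffer cells, lymphocytes and neutrophils, bile duct, red blood cells or fat cells were called in either sex by edgeR or DESeq2 with all mice. At an unadjusted p under 0.05 there were 1, 2, 1, 2, 0, 0, 0 and 1 in females and 0, 1, 0, 1, 0, 1, 1 and 0 in males, in that order. Of all genes, 15.6% in females and 4.05% in males had such a p by edgeR. By edgeR, 8, 12, 9, 11, 3, 2, 1 and 1 markers were tested in females, in the same order. In males 8, 12, 8, 7, 0, 2, 1 and 1 were tested, so edgeR could call no lymphocyte or neutrophil marker there. Lists with 0 to 3 markers tested cannot show whether those cell types differed. Without 1091, 6 markers were called lower in KO females by both edgeR and DESeq2: Trf of hepatocytes (-0.80 by edgeR), Pecam1 and Bmp2 of endothelium, Dcn of stellate cells (-0.99), and C1qa (-1.01) and Vsig4 (-1.29) of Kupffer cells. Those fits called 9.64% of all genes by edgeR and 12.2% by DESeq2. In the hepatocyte, endothelial, stellate and Kupffer cell lists 8, 12, 10 and 11 markers were tested by edgeR, with 1, 2, 1 and 2 called. Between the sexes, 10 of the 11 Kupffer cell markers tested in wild type were higher in females and 1 was lower (-0.89), with a median of 1.28. Of them C1qb (2.14), Clec4f (2.18) and Vsig4 (2.84) were called by edgeR, beside 1.39% of all genes. Their summed level overlapped, at 507 to 688 CPM in wild type females and 101 to 637 in wild type males. In KO mice 9 of 9 tested were higher in females. Alas2, of red cell heme synthesis and the 1 red blood cell marker tested, was lower in females (-2.02 in wild type and -3.15 in KO). It was called by edgeR in both genotypes, beside 1.39% and 11.5% of all genes. Between KO females and KO males 3 of the 8 hepatocyte markers were called by edgeR and by DESeq2, beside 11.5% and 9.91% of all genes. Alb was higher in females (0.60), whereas Serpina1c (-1.40) and Hnf4a (-0.63) were lower. DESeq2 alone called the fat cell marker Cfd lower in females. Endothelial, bile duct and lymphocyte markers had 0 called between the sexes of either genotype by edgeR or DESeq2. At an unadjusted p under 0.05 there were 3, 0 and 1 in wild type and 3, 0 and 1 in KO. Of all genes, 15.2% in wild type and 26.1% in KO had such a p by edgeR. Of these lists, 12, 2 and 1 markers were tested by edgeR in each genotype.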

How the data were processed

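Liver RNA of 12 mice (3 per sex and genotype, ZT10) was made into QuantSeq 3′ mRNA libraries (Lexogen). After trimming and mapping on BaseSpace, the authors deposited raw read counts per gene symbol, 1 table per sex, without normalization. The submitters' processing notes name STAR, DESeq and mm10, without versions. Library totals ran from 1293688 to 4056144, and no blank row was present. Reads carried no molecular identifiers, so depth covers counting error only. Of the symbols, 27 had been turned into dates and stayed in the totals.

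CPM used TMM-scaled totals over all 12 libraries. Each of 6 comparisons was fitted over all genes with edgeR 4.0.16 in R 4.3.3 (filterByExpr, TMM, quasi-likelihood F test, two-sided, Benjamini-Hochberg, threshold 0.05). The comparisons within 1 sex or genotype used 2 groups. Alternatives were DESeq2 1.42.0, limma-voom (limma 3.58.1), RLE scaling, at least 1 count in all or at least 10 counts in every library, thinning to the smallest total, Rn45s left out, all 4 groups in 1 fit, a sex term, and mice left out 1 at a time. Limma-voom with quality weights, DESeq2 without mouse 1091 and the list counts without that mouse were added after the data were seen. The scripts were tested on simulated data. Other steps ran in Python 3.11.15 (pandas 2.3.3, numpy 2.4.6, matplotlib 3.10.9).

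The members and gene lists were chosen with earlier results of these data known. Statistics were given for members with an unadjusted p under 0.05 by edgeR or called by DESeq2, and genes of the other lists were named where either tool called them, except some that are not reported here. Values of Klf6, Klf11, markers, Gpt, Gpt2 and Pck1 without mouse 1091, and the members without overlap, were chosen after their values were seen. The same holds for the difference of differences of Klf9. Coordinates and promoters are RefSeq's, on GRCm38.p6.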

Additional observations from a re-analysis of the deposited data

Results flagged for a closer look

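Klf6 was the member whose change differed between the sexes by a direct test: the female change was higher than the male change by 1.32 on the log2 scale, called by DESeq2 (adjusted p = 0.00868) and not by edgeR (adjusted p = 0.0829). It was 0.56 in females and -0.77 in males. All 3 KO males were below all 3 wild type males, while 2 of the 3 KO females were above all wild type females. No group had more than 3 mice, so no mouse was tested as an outlier.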

How the results depend on the processing

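No paired analysis was possible because each mouse has its own number and no number is shared between groups. Members were called in females as follows: 1 (Klf2) with no filter beyond 1 count and with quality weights (2.82% and 11.2% of all genes called), 2 (Klf2 and Klf6) by DESeq2 without 1091 (12.2%), and 0 to 1 with each mouse left out. For the change in females minus that in males, 1 (Klf6) was called by DESeq2, with no filter, with quality weights and by DESeq2 without 1091 (3.32%, 1.82%, 5.69% and 9.58% of genes), and 0 to 1 with each mouse left out. Between wild type females and males, 1 (Klf11) was called with quality weights (8.59%), 2 (Klf11 and Klf6) by DESeq2 without 1091 (10.4%) and 0 to 1 with each mouse left out. Between KO females and males, 0 were called in the fit of all 4 groups (3.59%) and 0 to 3 with each mouse left out. The cause of these shifts was not tested. The median over members in females was 0.0776 with at least 10 counts in every library and 0.0582 with thinned libraries, where 8 and 9 members were tested. For the change in females minus that in males it was 0.0294 by DESeq2 without 1091 and ran from 0.000624 (without KO male 1081) to 0.393 with each mouse left out. Between wild type females and males it ran from -0.16 (without 1090) to 0.23 (without 1091). In 136 of 136 alternatives, the members given with their statistics, apart from the difference of differences of Klf9, kept their direction. These members were chosen by p in the same mice that the alternatives refit, so this count is no test of their direction. Of 80 alternative levels, 8 moved by more than the SD of their group, all with Rn45s left out. At 4 to 31 reads per mouse, a difference in Klf4 is limited by depth.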
